A study of Mus musculus with 8 samples.

Results

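The IL-10 and IL-20 family genes described here are 4 cytokine genes (Il19, Il20, Il24 and Il10) and 5 receptor chain genes (Il20ra, Il20rb, Il22ra1, Il10ra and Il10rb), 9 of 49315 genes counted. They were taken by name, with results of this comparison already known, so that their differences between the groups are given as a description. How many lay past the threshold used for all genes is stated once, beside the share of all genes, and is not a test of them. RNA came from the whole esophagus of 8-week-old males. In the EoE33 group, 4 mice carried a transgene that overexpresses IL-33, in the epithelium according to the series title, and 4 littermates without it, labelled wild type and C57BL/6J, served as controls. The promoter of the transgene is not given in the sources used here, and counts of Il33 may hold reads of both the transgene and the endogenous gene. Libraries held 17.73 to 24.07 in units of 1e6 counts. Levels are given as CPM, counts per 1e6 counts after scaling for library composition.

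IL-19, IL-20 and IL-24 are cytokines of epithelial and myeloid cells that signal through a receptor of 2 chains, IL-20RA and IL-20RB. IL-20 and IL-24 can also use IL-22RA1 paired with IL-20RB. IL-22RA1 pairs with IL-10RB to bind IL-22, and IL-10RA pairs with IL-10RB to bind IL-10. These receptors act through JAK kinases and above all STAT3. In stratified epithelium, IL-20 receptor and IL-22 signalling is known for thickening of the epithelium, antimicrobial proteins and less terminal differentiation, while IL-10 is best known for restraining macrophages and other leukocytes.

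The level of Il33 was 128.7 ± 27.0 CPM for wild type against 370.8 ± 16.1 CPM for EoE33 (SD, n = 4 each), higher in all 4 EoE33 libraries. Squamous epithelial markers were abundant in all libraries, with Krt13, a keratin of the esophageal lining, at 33680 ± 7679 CPM (wild type) and 17280 ± 5984 CPM (EoE33; SD, n = 4 each). Of the 6 markers, Krt13 and Krt4, keratins of the upper layers, fell, and 4 rose: the basal keratin genes Krt14 and Krt5 (16.6-fold and 3.92-fold), the cadherin gene Cdh1 (2.63-fold) and the basal transcription factor gene Trp63 (1.98-fold), with edgeR adjusted p between 6.07e-07 and 0.0121 over the 6. Their part in the results below was not tested. Within wild type, replicate 3 stood apart by airway markers (summed level 430.5 CPM, elsewhere in the group 5.69 to 6.48) and replicate 1 by liver markers (131.9 CPM, elsewhere 3.85 to 9.59). Values are therefore also given without both libraries where a call was lost or a fold moved by over 1.5 times. Of the 16760 genes with enough counts to test, 5238 were higher and 5383 lower in EoE33 at a Benjamini-Hochberg adjusted p under 0.05 in edgeR's quasi-likelihood test, 63.4% in either direction, 31.3% higher and 32.1% lower. In 29.6% of tested genes every EoE33 library lay above every wild type library, and in 29.9% below. The median log2 fold change of all tested genes was -0.01 and the median of its absolute value 0.52.

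Of the 9 genes, 7 had enough counts to test, and Il20 and Il10 had not. In the fit of all genes, Il19, Il24, Il20ra and Il10ra lay past the threshold as higher and Il20rb as lower, and the same 5 did not overlap between groups. Il22ra1 and Il10rb lay short of it. These counts of 4 higher and 1 lower stand beside the background of 31.3% and 32.1% and are not evidence, since the genes were chosen on this comparison. The 4 cytokine genes lie together on chromosome 1 and the receptor chain genes on chromosomes 4, 9, 10 and 16, at the positions given with each gene below (GRCm38).

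**Figure D1:**
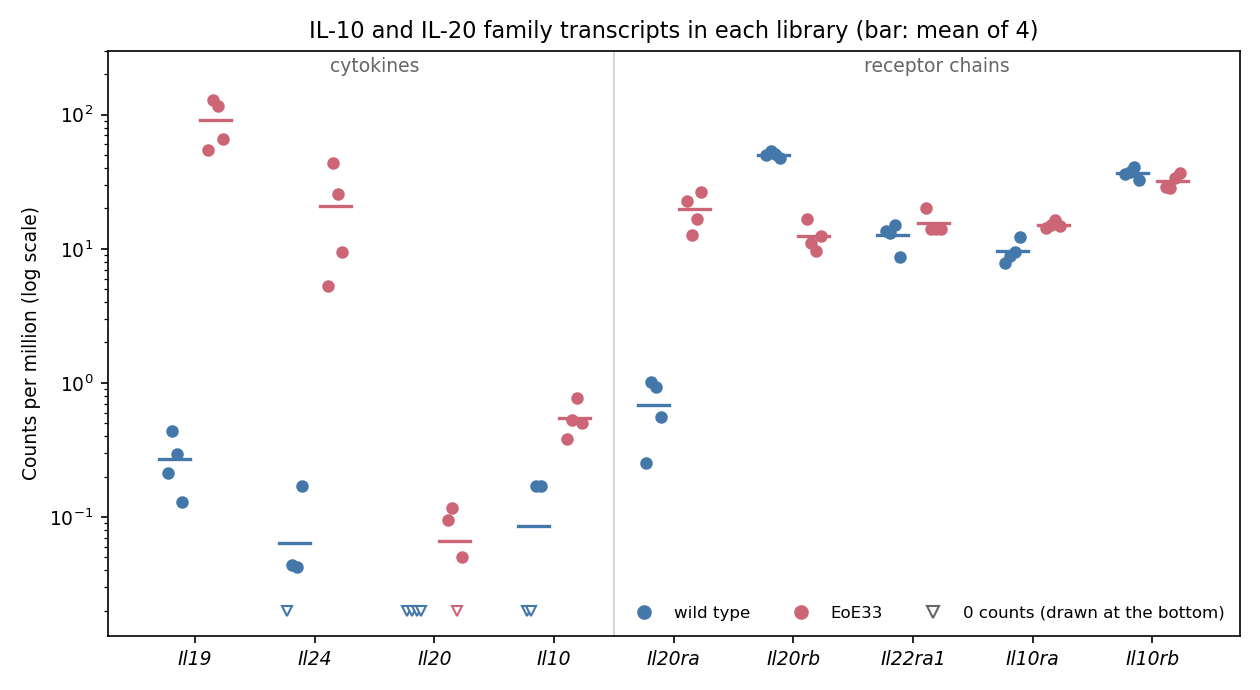
CPM of the 9 genes in each of the 8 libraries on a log axis, wild type in blue and EoE33 in red, with bars at group means of 4 libraries and open triangles at the bottom for libraries with 0 counts. Il19, Il24 and Il20ra are low in wild type and high in EoE33, Il20rb is the reverse, and Il22ra1 and Il10rb overlap between groups.

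The bases before the RefSeq start of 3 genes (RefSeq, GRCm38.p6) are shown because the levels of these genes differed between the groups in different ways. Il19, a ligand, and Il20ra, which encodes a chain of its receptor, were higher in EoE33. Il22ra1, the alternative chain for IL-20 and IL-24 but not for IL-19, overlapped between groups. Each run covers the 250 bases before the start on the strand of the gene, 5′ to 3′. Capitals mark matches on either strand to STAT (TTCNNNGAA), STAT6 (TTCNNNNGAA), AP-1 (TGANTCA) or NF-kB (GGGNNNNNCC) motifs, where N is any base.
Il19, chr1:130940116-130940365, minus strand: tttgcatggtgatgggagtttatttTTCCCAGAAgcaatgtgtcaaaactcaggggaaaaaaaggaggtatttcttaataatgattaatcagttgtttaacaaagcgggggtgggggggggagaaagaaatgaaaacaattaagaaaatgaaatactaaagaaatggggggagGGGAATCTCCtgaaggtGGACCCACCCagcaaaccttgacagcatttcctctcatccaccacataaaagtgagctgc
Il20ra, chr10:19712337-19712586, plus strand: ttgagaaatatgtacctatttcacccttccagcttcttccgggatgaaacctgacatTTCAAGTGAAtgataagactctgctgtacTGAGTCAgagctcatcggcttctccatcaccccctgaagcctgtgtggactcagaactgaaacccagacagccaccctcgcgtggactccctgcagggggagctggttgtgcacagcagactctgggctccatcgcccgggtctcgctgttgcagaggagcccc
Il22ra1, chr4:135727909-135728158, plus strand: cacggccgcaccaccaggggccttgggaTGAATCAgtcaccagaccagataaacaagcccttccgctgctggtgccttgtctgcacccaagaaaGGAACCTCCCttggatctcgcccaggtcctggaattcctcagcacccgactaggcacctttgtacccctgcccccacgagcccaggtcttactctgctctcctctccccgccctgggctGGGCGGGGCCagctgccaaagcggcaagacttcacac

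The Il19 run holds a STAT match TTCCCAGAA at positions -225 to -217 from the start and NF-kB matches at -77 to -68 and -60 to -51. The Il20ra run holds a STAT6 match TTCAAGTGAA at -193 to -184 and an AP-1 match TGAGTCA at -164 to -158. In Il22ra1 an AP-1 match lies at -222 to -216 and NF-kB matches at -156 to -147 and -37 to -28. The RefSeq promoter table held 5 of the 9 genes, the other 2 being Il20 and Il20rb. Il20 has a STAT6 match at -104 to -95 and an NF-kB match at -162 to -153, and Il20rb has NF-kB matches at -199 to -190 and -107 to -98. GENCODE M21 starts Il20 at 130911451, Il20rb at 100486788 and Il20ra at 19712570, each upstream of the RefSeq start. The whole Il20rb window and the Il20 bases from within the NF-kB match on thus lie inside an annotated gene body rather than before its first start. So do the last bases of the Il20ra run, which hold no match. None of the matches in these 5 genes overlaps another. Over the table's 32851 promoters, the STAT motif was found in 7.02%, STAT6 in 5.85%, AP-1 in 6.75% and NF-kB in 45.8%. Among the 5 genes they were found in 1, 2, 2 and 4. A match of letters is a description of the window and not a bound site.

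Il19, which encodes a ligand of the IL-20RA and IL-20RB receptor, was almost silent in wild type and the most abundant of the family in EoE33. The gene (ENSMUSG00000016524) lies at chr1:130932656-130940115 on the minus strand, with 6 exons. Its level in wild type replicates 1 to 4 was 0.212, 0.439, 0.296 and 0.128 CPM, from 25 counts in all. In the 4 EoE33 replicates it was 54.2, 127.8, 115.7 and 66.1 CPM, from 7333 counts. Every EoE33 library stood far above every wild type library, and within EoE33 replicates 2 and 3 were the high ones. The group means were 0.269 ± 0.132 and 90.9 ± 36.3 CPM (SD, n = 4 each), a log2 fold change of 8.38 with a standard error of 0.46 and a 95% interval of 7.31 to 9.45. That is a 332.5-fold difference, the 16th highest log2 fold change of the genes tested. Per exon length, Il19 passed from the 6.8th to the 96.8th percentile of the tested genes.

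Il24, a second ligand of the same receptor, was as unequal between the groups but varied more among the EoE33 mice. The gene (ENSMUSG00000026420) lies at chr1:130882074-130887454 on the minus strand. Wild type replicates 1 to 4 held 0, 1, 1 and 4 counts. EoE33 replicates 1 to 4 held 111, 750, 590 and 189 counts, or 5.29, 43.8, 25.4 and 9.43 CPM. Again replicates 2 and 3 were high, and the highest EoE33 level was 8.28 times the lowest, against 2.36 times for Il19. On the log2 scale the difference was 8.23 (standard error 1.09, 95% interval 5.70 to 10.75). It rested on few wild type counts: it was 9.25 without wild type replicate 4, 7.59 without EoE33 replicate 2 and 7.51 without both wild type replicates 1 and 3.

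Il20, the gene that gives the receptor its name, was barely detected in either group. The gene (ENSMUSG00000026416; chr1:130906985-130911451, minus strand) lies between Il24 and Il19. It had 0 counts in all wild type libraries and 2, 2, 0 and 1 counts in the EoE33 libraries. The exact 95% lower limit of the EoE33 to wild type ratio of these counts, scaled for library size, was 1.05, for counting error only. Each EoE33 library was below the 3 counts that a count of 0 allows, so no fold is given. With 5 counts against 7333 for Il19, transcripts of the 2 neighbouring genes differed widely in number in the same libraries.

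Il19 outnumbered Il24 in every EoE33 library, by 10.2, 2.92, 4.55 and 7.01 times in counts for replicates 1 to 4. The excess was smallest in replicates 2 and 3, where both transcripts were highest. Summed over Il19, Il20 and Il24, the EoE33 libraries held 59.6, 171.8, 141.1 and 75.6 CPM and the wild type libraries 0.212 to 0.483 CPM.

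Il10, which encodes the cytokine the family is named after, was detected at very low counts. The gene (ENSMUSG00000016529) lies at chr1:131019845-131024974 on the plus strand. Wild type replicates 1 to 4 held 0, 0, 4 and 4 counts and EoE33 replicates 1 to 4 held 8, 9, 18 and 10. The EoE33 levels of 0.381 to 0.776 CPM all lay above the highest wild type level of 0.171 CPM. The ratio of EoE33 to wild type counts, scaled for library size, was 6.46 with an exact 95% interval of 3.01 to 15.9 that covers counting error only. The wild type libraries with 0 counts allow up to 0.127 and 0.132 CPM, given 3 counts as the limit. Summed B cell markers were 0.848, 0.702, 25.9 and 26.6 CPM in wild type replicates 1 to 4. In EoE33 replicates 1 to 4 they were 12.9, 43.5, 26.0 and 6.53 CPM. Summed markers of all leukocytes were 65.3, 68.7, 115.9 and 139.6 CPM in wild type and 209.7, 239.0, 283.4 and 222.4 CPM in EoE33. Those of macrophages were 212.9, 179.9, 292.9 and 297.5 CPM and 364.0, 447.3, 476.8 and 429.9 CPM. For T cells they were 2.12, 1.84, 2.45 and 9.11 CPM and 10.4, 7.19, 11.3 and 10.5 CPM. The part of any of these cells in Il10 was not tested.

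Around the cluster, none of the 4 flanking genes named here reached the log2 fold change of Il19 or Il24. Il24, Il20 and Il19 follow each other on the minus strand with gaps of 19531 and 21205 bases, and Il10 lies 79730 bases beyond Il19 on the other strand. On the Il10 side, Mapkapk2, which encodes a kinase of the p38 pathway, passed as lower by a small margin (-0.18 on the log2 scale, standard error 0.05, edgeR adjusted p = 0.0131), from 199.0 ± 1.75 to 175.5 ± 4.78 CPM (SD, n = 4 each). For Dyrk3, the next gene, it was -0.20 (standard error 0.21, edgeR adjusted p = 0.411). On the Il24 side, Fcmr, which encodes an immunoglobulin M receptor of B cells, ends 1283 bases from Il24. Neither Fcmr, at 1.41 on the log2 scale (standard error 0.89, edgeR adjusted p = 0.195), nor Pigr, the polymeric immunoglobulin receptor, at 2.60 (standard error 1.27, edgeR adjusted p = 0.109), passed, and both overlapped between groups.

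**Figure D2:**
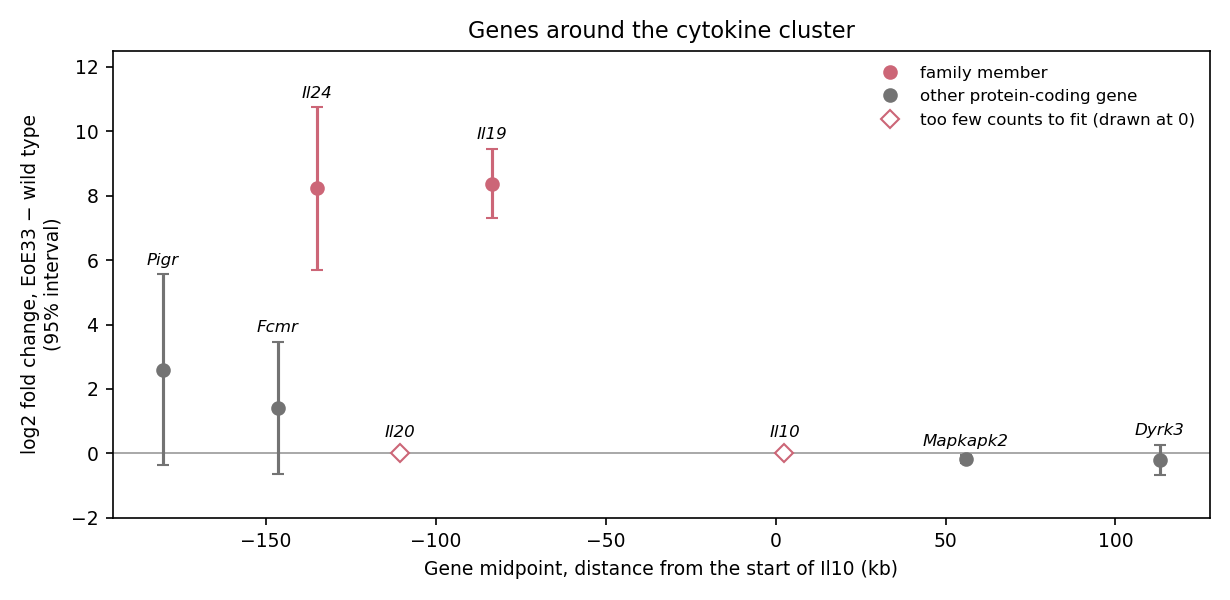
Log2 fold change (EoE33 minus wild type) with its 95% interval for protein-coding genes of the cluster, against the distance of each gene's midpoint from the start of Il10 in kilobases. Il19 and Il24 stand at 8.38 and 8.23, the flanking genes tested lie between -0.20 and 2.60, and open diamonds drawn at 0 mark Il20 and Il10, which had too few counts to fit.

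Il20ra, which encodes the chain that pairs with IL-20RB in the IL-20 receptor, was higher in EoE33. The gene (ENSMUSG00000020007) lies at chr10:19712570-19760053 on the plus strand. Wild type replicates 1 to 4 were at 0.254, 1.01, 0.930 and 0.556 CPM and EoE33 replicates 1 to 4 at 22.7, 12.7, 16.7 and 26.6 CPM. The groups did not overlap, and within EoE33 replicates 1 and 4 were high, the libraries in which Il19 was low. EoE33 exceeded wild type by 4.83 on the log2 scale (standard error 0.38, 95% interval 3.96 to 5.70), a 28.5-fold difference, on means of 0.687 ± 0.350 and 19.7 ± 6.15 CPM (SD, n = 4 each).

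Il20rb, the chain shared by both receptors of IL-20 and IL-24, was lower in EoE33. The gene (ENSMUSG00000044244) lies at chr9:100457719-100486788 on the minus strand. The wild type libraries were close together at 49.96, 53.5, 50.5 and 47.3 CPM, and the EoE33 libraries were at 16.6, 11.1, 9.61 and 12.52 CPM. The lowest wild type library was well above the highest EoE33 library. Its log2 fold change, EoE33 minus wild type, was -2.01 (standard error 0.15, 95% interval -2.35 to -1.67), which is 4.03-fold lower. Per exon length, Il20rb went from the 77.6th to the 44.0th percentile of tested genes.

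Il22ra1, the chain that IL-22 binds and that can replace IL-20RA for IL-20 and IL-24, overlapped between groups. The gene (ENSMUSG00000037157) lies at chr4:135728172-135752140 on the plus strand. Its levels were 13.5, 13.2, 15.04 and 8.73 CPM in wild type and 20.3, 14.0, 14.1 and 14.0 CPM in EoE33. Wild type replicate 4 was low and EoE33 replicate 1 high, and the other 6 libraries lay between 13.2 and 15.04 CPM. A log2 fold change of 0.30 resulted (standard error 0.19, 95% interval -0.12 to 0.73), so a difference of up to 0.73 on the log2 scale lies within its interval.

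The ratio of the chains within a library does not depend on how libraries are scaled. Per exon length, Il20rb exceeded Il20ra by 30.6 to 113.4 times in wild type, whereas Il20ra exceeded Il20rb by 1.99 to 3.68 times in EoE33. The log2 ratio of Il20ra to Il20rb was -5.59 ± 0.88 for wild type and 1.43 ± 0.39 for EoE33 (SD, n = 4 each). For the second receptor, the log2 ratio of Il22ra1 to Il20rb was -1.31 ± 0.30 and 1.04 ± 0.16 (SD, n = 4 each). In both pairs Il20rb was the more abundant chain in all 4 wild type libraries and the less abundant in all 4 EoE33 libraries. The ratio of Il22ra1 to Il10rb, the IL-22 receptor pair, was -1.0 ± 0.23 and -0.48 ± 0.39 on the log2 scale (SD, n = 4 each). These are ratios of transcripts in whole tissue, and whether the chains share cells was not measured.

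**Figure D3:**
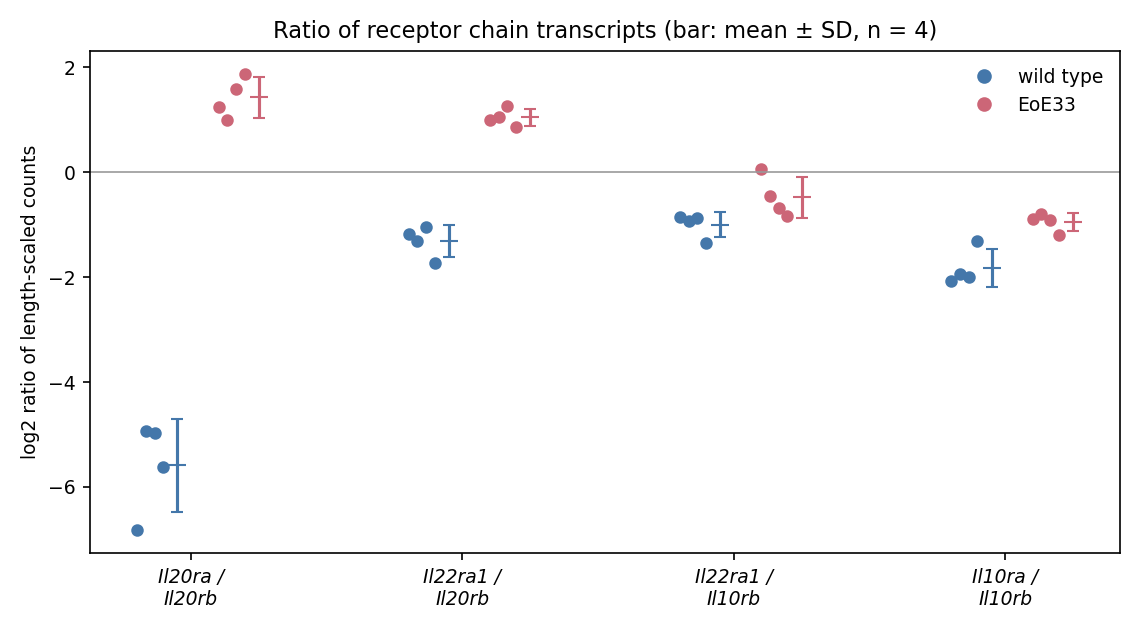
Log2 ratio of length-scaled counts for 4 pairs of receptor chains in each library, wild type in blue and EoE33 in red, with the mean ± SD of 4 libraries beside the points and a line at equal levels. The ratios to Il20rb lie below 0 in all wild type libraries and above 0 in all EoE33 libraries, at -5.59 and 1.43 for Il20ra and at -1.31 and 1.04 for Il22ra1.

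Il10ra, the chain specific to IL-10 and carried mainly by leukocytes, was modestly higher in EoE33. The gene (ENSMUSG00000032089) lies at chr9:45253837-45269149 on the minus strand. Its levels were 7.88, 8.90, 9.47 and 12.2 CPM in wild type and 14.2, 15.02, 16.3 and 14.8 CPM in EoE33. The groups did not overlap, and wild type replicate 4, which also had the highest summed T cell markers of its group, came nearest to EoE33. The difference was 0.65 on the log2 scale (standard error 0.14, 95% interval 0.34 to 0.95), a 1.57-fold difference.

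Markers of leukocytes moved with Il10ra. The 5 pan-leukocyte markers, among them Ptprc (CD45), all rose, and their summed level was 65.3 to 139.6 CPM in wild type and 209.7 to 283.4 CPM in EoE33. All 6 macrophage markers rose too, from a sum of 179.9 to 297.5 CPM to one of 364.0 to 476.8 CPM. Among all tested genes 31.3% were higher. Relative to the summed leukocyte markers, Il10ra was lower in EoE33, with a log2 ratio of -3.98 ± 0.10 against -3.28 ± 0.33 in wild type (SD, n = 4 each). In bulk tissue, a change in the number of cells of a type and a change in RNA per cell cannot be told apart, and the part of the markers in this and the other results was not tested.

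Il10rb, the widely expressed second chain of the IL-10, IL-22 and interferon lambda receptors, was near equal in the groups. The gene (ENSMUSG00000022969) lies at chr16:91406164-91425834 on the plus strand. Its levels were 36.2, 37.2, 41.0 and 32.9 CPM in wild type and 28.8, 28.5, 33.6 and 36.7 CPM in EoE33, and the groups overlapped. Its log2 fold change was -0.21 (standard error 0.10, 95% interval -0.44 to 0.03). Without EoE33 replicate 4 it was -0.28 and lay past the threshold as lower. Of its 150-base exonic windows, 16.0% are shared with Gm21970, an overlapping gene model on the same strand that had 0 counts in all libraries. The log2 ratio of Il10ra to Il10rb was -1.83 ± 0.35 for wild type and -0.95 ± 0.17 for EoE33 (SD, n = 4 each).

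Across the family, the order of levels per exon length changed. RPKM here are counts per 1e6 counts and per kilobase of exon. In wild type it ran from Il20rb (11.96 ± 0.60 RPKM) over Il10rb (9.66 ± 0.88), Il22ra1 (4.91 ± 1.06) and Il10ra (2.75 ± 0.53) to Il20ra (0.283 ± 0.144) and Il19 (0.234 ± 0.115), all SD with n = 4. Receptor chains thus came before all cytokines. Il10 at 0.065 RPKM, Il24 at 0.046 RPKM and Il20 at 0 followed, and from Il20ra down to Il20 each gene overlapped the next, as did Il22ra1 and Il10ra. In EoE33 it ran from Il19 (79.2 ± 31.6 RPKM) and Il24 (15.2 ± 12.7) over Il10rb (8.37 ± 1.05), Il20ra (8.10 ± 2.53), Il22ra1 (6.07 ± 1.23) and Il10ra (4.31 ± 0.26) to Il20rb (2.96 ± 0.72) and Il10 (0.416 ± 0.127), all SD with n = 4. Cytokines held the first 2 places, Il20rb had moved from first to seventh place, and Il20 was last at 0.055 RPKM. Neighbours from Il24 to Il22ra1 overlapped, while Il19 and Il24, Il22ra1 and Il10ra, Il10ra and Il20rb, Il20rb and Il10, and Il10 and Il20 did not.

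Within the EoE33 group, replicates 2 and 3 differed from replicates 1 and 4 in several genes beside the family. Lor, the cornified envelope protein loricrin, was at 1735, 69.9, 331.5 and 1322 CPM in EoE33 replicates 1 to 4, lowest where Il19 and Il24 were highest. Defb4, a beta defensin gene, was at 69.4, 2.69, 11.1 and 53.7 CPM. Both were thus lowest in replicate 2. Retnlg, a neutrophil gene, was at 19.6, 54.1, 59.5 and 20.7 CPM, and Il1b, the cytokine interleukin-1 beta, at 65.6, 101.8, 151.3 and 80.7 CPM. Retnlg and Il1b were thus highest in replicates 2 and 3. The summed neutrophil markers, which include Retnlg, did not share this split. They were at 485.5, 290.7, 410.2 and 278.1 CPM in EoE33 replicates 1 to 4, highest in replicate 1. The genes were chosen after their values were seen, and 4 libraries allow no test of such an order.

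**Figure D4:**
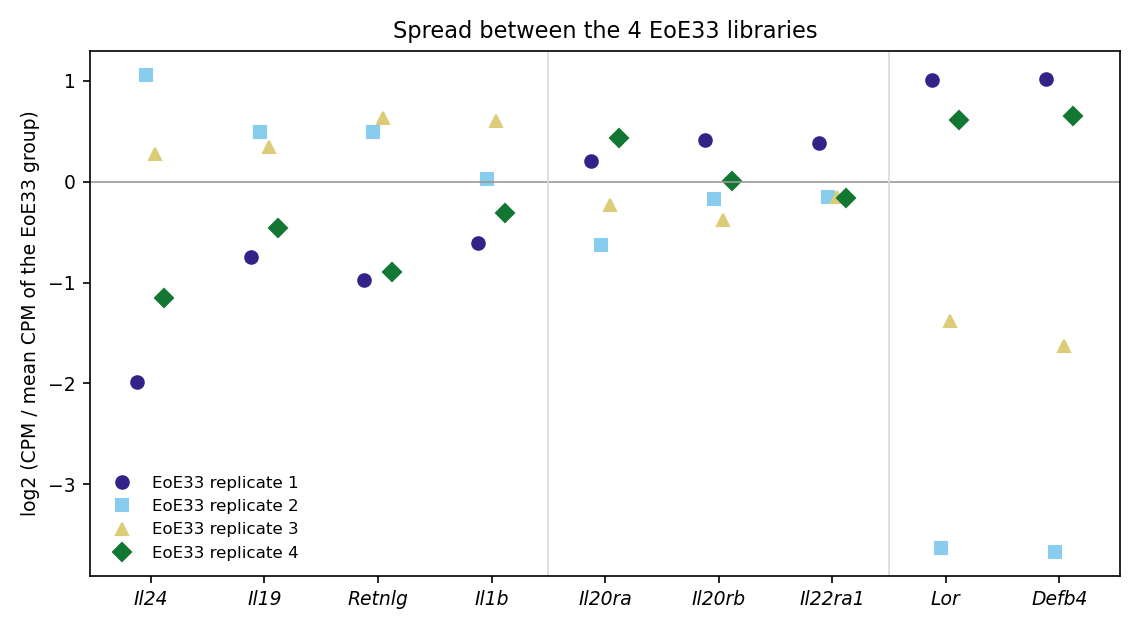
Log2 of each EoE33 library's CPM over the mean CPM of the 4 EoE33 libraries, with Il24, Il19, Retnlg and Il1b at left, 3 receptor chains in the middle and Lor and Defb4 at right, with 1 symbol per replicate. Replicates 2 and 3 are above the mean for Il24 and Il19 and below it for Il20ra, Lor and Defb4.

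The genes with a course over the 8 libraries nearest to each member were sought over 15023 genes with a mean of at least 1 CPM. The measure was the root mean square difference of log2 CPM after adding 0.1 CPM, each gene centred on its wild type mean. The wild type mean of Il24, 0.0643 CPM, is below this constant, so that its distances depend on it. Nearest to Il19 was Cxcl3, a neutrophil chemokine gene, at a difference of 0.32, followed by the gasdermin gene Gsdmc2 at 0.45 and the phospholipase gene Pla2g4c at 0.50. Nearest to Il24 were Mmp10, a matrix metalloproteinase gene, at 0.49, Retnlg at 0.51 and Il1b at 0.66. Fcgbp (0.42), Slc16a14 (0.43) and Cdh6 (0.54) were nearest to Il20ra. Nearest to Il20rb were S1pr5 (0.10), Ptger3 (0.12) and Kremen2 (0.13). S1pr5 and Ptger3 encode receptors of the lipid mediators sphingosine-1-phosphate and prostaglandin E2. For Il10ra the nearest were St8sia4 (0.09), Cenpj (0.09) and Gnai2 (0.10). For Il22ra1 they were Gm5905, Chrnb2 and Relch (0.11 to 0.13) and for Il10rb Coa6, 5830417I10Rik and Tmem115 (0.06 to 0.08). Since the groups differ in most genes, such likeness is mostly likeness in the group difference, and genes with small differences have small distances.

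Relatives of the family, the other class II cytokine and receptor genes, were next compared. This gene list and those below were chosen with earlier results of these data known. Their counts are thus a description beside the shares of all tested genes and not a test of the lists. Of 15 listed, 6 had enough counts to test, of which 4 rose and none fell, beside 31.3% higher and 32.1% lower over all tested genes. Their median log2 fold change was 0.34, against -0.01 over all tested genes. The count of 0 lower was the same at an unadjusted p under 0.05 in edgeR and with DESeq2 and limma-voom. The interferon gamma receptor genes Ifngr1 and Ifngr2 rose 1.92-fold and 2.00-fold (edgeR adjusted p = 0.000123 and 5.79e-05). Ifnar1 and Ifnar2, the type I interferon receptor genes, rose 1.22-fold and 1.31-fold (edgeR adjusted p = 0.0155 and 0.0411). The call of Ifnar2 was lost when any of 7 of the 8 libraries was left out, and both Ifnar calls were lost without both wild type replicates 1 and 3. Ifnlr1, the interferon lambda receptor chain that lies 19991 bases from Il22ra1, was at -0.18 on the log2 scale (standard error 0.11, edgeR adjusted p = 0.172) and passed as lower at -0.27 without EoE33 replicate 2.

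Ligands of these relatives were at or near 0. Il22 and its copy Iltifb, and the interferon lambda genes Ifnl2 and Ifnl3, had 0 counts in all 8 libraries, which allows up to 0.127 to 0.175 CPM in a library. Ifng had 3 counts over the wild type and 2 over the EoE33 libraries. Il22ra2, the soluble decoy receptor of IL-22 that lies 77889 bases from Il20ra, had 7, 3, 0 and 25 counts in wild type and 0, 0, 1 and 1 in EoE33. The scaled ratio was 0.0656 with an exact 95% interval of 0.00765 to 0.256 for counting error only, and most of its wild type counts came from replicate 4.

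Among the genes that flank the receptor chains, Ifngr1, on the other side of Il22ra2 from Il20ra, rose as given above, and Pex7, a peroxisomal import gene, was at -0.10 on the log2 scale (edgeR adjusted p = 0.258). Beside Il20rb, Nck1, an adaptor gene, fell 1.36-fold (edgeR adjusted p = 0.000679) and Slc35g2 was at -0.46 on the log2 scale (edgeR adjusted p = 0.0718). Beside Il22ra1, Myom3, a muscle sarcomere gene, fell 2.85-fold (edgeR adjusted p = 3.68e-06), Grhl3, an epithelial transcription factor gene, fell 1.57-fold (edgeR adjusted p = 0.000524) and the splicing factor gene Srsf10 rose 1.33-fold (edgeR adjusted p = 0.00492). Markers of skeletal muscle all fell, against 32.1% of all tested genes. Their summed level was 22910 to 24650 CPM in wild type and 6007 to 8202 CPM in EoE33. Beside Il10ra, the serine protease gene Tmprss4 rose 5.29-fold (edgeR adjusted p = 5.78e-07), while Tmprss13 fell 1.66-fold (edgeR adjusted p = 0.00437) and Fxyd6 fell 2.05-fold (edgeR adjusted p = 0.000419). Slc35d3, Cldn18, Sox14 and BC049352 had too few counts to test.

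Of 19 JAK, STAT and feedback genes, all tested, 12 rose, 4 fell and 3 did not pass, with a median log2 fold change of 0.37. Over all tested genes 31.3% were higher and 32.1% lower. The largest rises were those of suppressors of cytokine signalling: Socs1 rose 7.97-fold and Socs3, the feedback inhibitor induced by STAT3, rose 5.23-fold (edgeR adjusted p = 1.62e-06 and 1.46e-05). Socs3 went from 26.0 ± 6.36 to 136.1 ± 25.1 CPM (SD, n = 4 each). Stat3 itself rose 1.27-fold (edgeR adjusted p = 0.000827), Jak1 1.29-fold and Jak2 2.24-fold (edgeR adjusted p = 0.000739 and 6.2e-05). Ptpn2, a phosphatase gene that acts on JAK and STAT proteins, rose 1.67-fold (edgeR adjusted p = 0.000106). Those that fell were Stat5b (1.63-fold, edgeR adjusted p = 6.04e-05), Ptpn11 (1.35-fold, 0.000771), Pias1 (1.20-fold, 0.00616) and Stat5a (1.39-fold, 0.0204), and the call of Stat5a was lost without wild type replicate 4 and without both wild type replicates 1 and 3.

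Genes known to be induced in keratinocytes by IL-20 receptor or IL-22 signalling were mostly higher. Of 16 listed, 13 were tested, of which 11 rose, 1 fell and 1 did not pass, with a median log2 fold change of 4.87. The shares over all tested genes were 31.3% higher and 32.1% lower. Since the list was chosen with earlier results known, this is a description and not a test of such signalling. Cxcl5, a neutrophil chemokine gene, rose 531.7-fold (edgeR adjusted p = 3.51e-06), from 0.642 ± 0.072 to 344.4 ± 160.8 CPM (SD, n = 4 each). The keratins of activated epithelium Krt16, Krt6b and Krt6a rose 228.8-fold, 118.5-fold and 98.3-fold (edgeR adjusted p = 6.95e-06, 8.67e-06 and 6.58e-08). S100a8 and S100a9, which encode calprotectin, rose 168.3-fold and 30.6-fold (edgeR adjusted p = 3.26e-06 and 1.17e-05). S100a8 is also a neutrophil gene. It is 1 of the 4 summed neutrophil markers, which were 9.80 to 12.6 CPM in wild type and 278.1 to 485.5 CPM in EoE33. At 202.2 to 444.9 CPM in EoE33, S100a8 made up most of that sum, which is thus not separate from its rise. Of the other markers, Retnlg went from 0.299 ± 0.294 to 38.5 ± 21.2 CPM (SD, n = 4 each). Cxcr2 went from 9.282 ± 1.885 to 27.15 ± 8.613 CPM (SD, n = 4 each) and Ly6g from 1 to 192 counts. The part of neutrophils in these rises was not tested.

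Defb4, the mouse counterpart of an IL-22-induced defensin, went the other way, from 440.9 ± 86.3 to 34.2 ± 32.4 CPM (SD, n = 4 each). It fell 12.9-fold (-3.69 on the log2 scale, standard error 0.89, edgeR adjusted p = 0.00785), and the log2 fold change was -4.29 without EoE33 replicate 1 and -4.50 with limma-voom. S100a7a, an antimicrobial S100 gene, did not pass, at 74.2 ± 21.5 CPM (wild type) and 72.0 ± 40.6 CPM (EoE33; SD, n = 4 each). Reg3g, an antimicrobial lectin gene, had too few counts outside wild type replicate 3, which held 532 of its 539 wild type counts and is the library with airway markers.

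Of 11 listed differentiation genes known to be lowered by this signalling, 10 were tested, of which 7 fell, none rose and 3 did not pass. Their median log2 fold change was -3.88. Among all tested genes 32.1% were lower and 31.3% higher. DESeq2 and limma-voom also passed 0 as higher, and at an unadjusted p under 0.05 edgeR and limma-voom gave 0 and DESeq2 gave 1. Flg, the barrier protein filaggrin, fell 155.9-fold (edgeR adjusted p = 0.000325) and Hrnr, its relative hornerin, fell 97.4-fold (edgeR adjusted p = 3.85e-06). Hrnr went from 398.8 ± 41.1 to 4.07 ± 2.09 CPM (SD, n = 4 each). The desmosomal cadherin gene Dsc1 fell 35.6-fold, the protease gene Casp14 14.4-fold and the keratin gene Krt10 13.7-fold (edgeR adjusted p = 0.000436, 8.58e-05 and 0.00143). Krt1, the partner of Krt10, was at 148.2, 122.3, 1.10 and 276.7 CPM in wild type and 0.238 to 1.42 CPM in EoE33, so that its groups overlapped through wild type replicate 3. It passed at -7.20 on the log2 scale (edgeR adjusted p = 0.00379) and was at -6.60 without wild type replicate 4. With limma-voom it did not pass, at -5.97 (adjusted p = 0.27). Ivl, which encodes involucrin, did not pass, at 0.57 on the log2 scale (standard error 0.29, edgeR adjusted p = 0.113).

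For the IL-10 arm, genes known to be induced by IL-10 in macrophages were counted first. All 12 were tested, of which 9 rose, 2 fell and 1 did not pass, with a median log2 fold change of 1.497. Socs3, counted above with the JAK, STAT and feedback genes, is also among these 9. The background over all tested genes was 31.3% higher and 32.1% lower. Il4ra, the shared receptor chain of IL-4 and IL-13, rose 16.6-fold (edgeR adjusted p = 1.26e-06), Bcl3, an NF-kB regulator gene, 5.31-fold (edgeR adjusted p = 5.2e-06) and Sbno2, a STAT3 target, 3.23-fold (edgeR adjusted p = 8.85e-07). Zfp36, which encodes an RNA-destabilising protein, rose 3.12-fold (edgeR adjusted p = 5.39e-06). Hmox1, heme oxygenase, fell 2.84-fold (edgeR adjusted p = 5.35e-06), and Etv3, a repressor gene, fell 1.14-fold (edgeR adjusted p = 0.0464), a call lost in 14 of 19 alternative settings. Cd163, a macrophage scavenger receptor gene, did not pass, at 54.2 ± 15.7 and 67.6 ± 25.4 CPM (SD, n = 4 each).

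Inflammatory genes known to be lowered by IL-10 were also mostly higher. Of 13 listed, 12 were tested, of which 9 rose, 1 fell and 2 did not pass, with a median log2 fold change of 3.32. All tested genes gave 31.3% higher and 32.1% lower. Il1b rose 100.8-fold (edgeR adjusted p = 5.14e-06), and Il23a from 3 to 190 counts (edgeR adjusted p = 2.44e-06), a ratio of 72.8 with an exact 95% interval of 24.5 to 355.9 for counting error. Il6 went from 1 to 149 counts over the groups, a ratio of 171.2 (exact 95% interval 30.3 to 6805). The log2 fold change of Il6 was 6.81 (edgeR adjusted p = 0.000111), 8.31 without wild type replicate 4, which held that count, 6.06 without both wild type replicates 1 and 3, and 5.82 with limma-voom. The chemokine genes Ccl4 and Ccl3 rose by log2 fold changes of 5.41 and 4.64 (edgeR adjusted p = 5.52e-05 and 2.78e-05). These were 6.67 without wild type replicate 1 and 6.22 without both wild type replicates 1 and 3 for Ccl4, and 5.23 without wild type replicate 2 for Ccl3. Il12a, a subunit of IL-12, fell 4.16-fold (edgeR adjusted p = 3.05e-05), from 2.90 ± 0.39 to 0.697 ± 0.120 CPM (SD, n = 4 each).

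Of 9 genes of regulatory T cells and regulators of Il10, all tested, 6 rose, 1 fell and 2 did not pass, with a median log2 fold change of 0.64. Over all tested genes 63.4% passed in either direction. Foxp3, the master regulator of regulatory T cells, rose 2.17-fold (edgeR adjusted p = 0.0023), from 1.02 ± 0.20 to 2.21 ± 0.43 CPM (SD, n = 4 each). The checkpoint receptor gene Ctla4 rose 4.13-fold (edgeR adjusted p = 0.000574), the transcription factor gene Ikzf2 4.11-fold (edgeR adjusted p = 1.62e-06) and the checkpoint gene Tigit from 4 to 330 counts (6.43 on the log2 scale, edgeR adjusted p = 1.41e-05). Ikzf2 went from 18.2 ± 2.56 to 74.9 ± 8.14 CPM (SD, n = 4 each), far above the levels of Foxp3. Which cells held Ikzf2 was not measured. Ahr rose 1.27-fold (edgeR adjusted p = 0.0277), a call lost without any one of wild type replicates 2, 3 and 4 or EoE33 replicate 1, and Prdm1, also among the 6 (edgeR adjusted p = 0.047), lost its call in 6 of 8 such fits. Neither call held without both wild type replicates 1 and 3. Maf, a transcription factor gene that drives Il10 in T cells and macrophages, fell 1.34-fold (edgeR adjusted p = 0.0091). Summed T cell markers were 1.84 to 9.11 CPM in wild type and 7.19 to 11.3 CPM in EoE33, and 2 of 6 of them rose, against 31.3% of all tested genes.

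**Figure D5:**
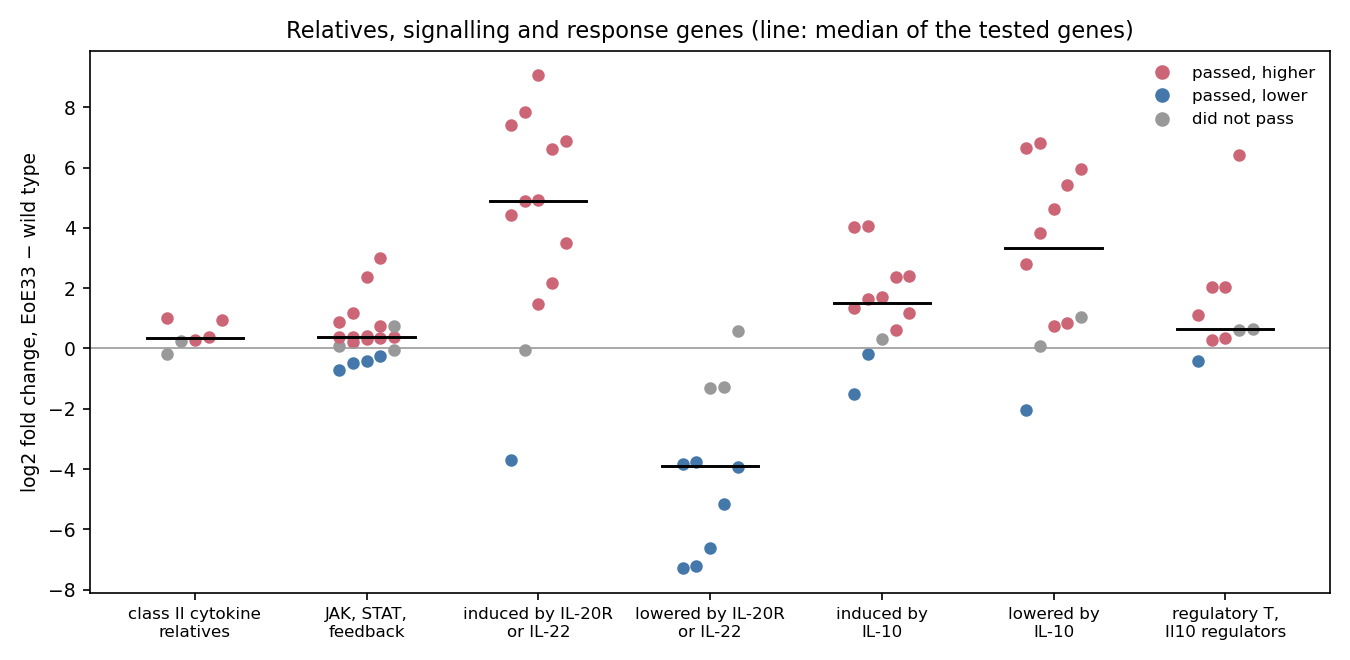
Log2 fold change (EoE33 minus wild type) of each tested gene in 7 lists, red where it passed as higher, blue where it passed as lower and grey where it did not pass, with a black line at the median of each list. The medians are 0.34, 0.37, 4.87, -3.88, 1.497, 3.32 and 0.64 from left to right, against -0.01 over all tested genes.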

How the data were processed

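RNA of whole esophagus from 8 mice was sequenced as polyA-selected paired-end libraries, per the labels' protocols. The authors deposited raw counts per gene for 49315 Ensembl identifiers, assigned to samples by the column letter in each sample's description. Trimmomatic 0.36, STAR 2.5.2b, featureCounts, Subread 1.5.2 and GRCm38 are named, without roles, in the submitters' processing notes. Not given in the sources used here are the annotation release, use of strand and handling of multiply matching reads. GENCODE M21 gave symbols for 49056 identifiers and exon lengths. Genes were filtered with filterByExpr, scaled by TMM and tested with edgeR 4.0.16 (glmQLFit robust, glmQLFTest; R 4.3.3), with genotype as the only term. Standard errors come from the F statistic. Pairs of libraries within a group gave a chi-square of 10.38 to 70.1 per degree of freedom, so none was counted as a duplicate. The fit was tested on simulated data. CPM and RPKM use TMM-scaled library sizes. Intervals of count ratios and floors cover counting error only, while those of log2 fold changes include the spread between mice. The members and gene lists were chosen with earlier results of these data known. Named from each list were up to 6 genes past the threshold with the smallest p, those against the list's main direction and a few by name, with flanking genes and the 3 nearest patterns per member. Others were chosen after their values were seen. Alternatives were DESeq2 1.42.0, its size factors, limma-voom (limma 3.58.1), other scalings and filters, the replicate number as a block and leaving out libraries. A comparison of the proteins was not run.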

Additional observations from a re-analysis of the deposited data

Results flagged for a closer look

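Of 148 sets of 4 libraries screened (each member, named pathway gene, chain ratio and marker sum in each group), 13 had 1 library far from the other 3, where chance gives about 1 in 20. Among the members, Il22ra1 was at 20.31 CPM in EoE33 replicate 1, against 13.96 to 14.05 CPM in the other 3. The log2 ratio of Il22ra1 to Il10rb was -1.345 in wild type replicate 4, against -0.928 to -0.851.

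Among relatives and response genes, Ifnar2 was at 22.23 CPM in EoE33 replicate 3 (others 19.99 to 20.35), and Il12a was at 0.5171 CPM in the same library (others 0.748 to 0.7629). Tigit was at 6.605 CPM in EoE33 replicate 2 (others 3.142 to 3.577). In wild type, Hrnr was at 337.8 CPM in replicate 4 (others 411.7 to 424.0), Il6 at 0.04278 CPM in replicate 4 (others 0) and Il23a at 0 CPM in replicate 1 (others 0.0423 to 0.0439). The values of Il6 and Il23a rest on at most 1 count per library.

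Among marker sums, T cell markers were at 9.111 CPM in wild type replicate 4 (others 1.842 to 2.451) and skeletal muscle markers at 8202 CPM in EoE33 replicate 4 (others 6007 to 6304). Airway markers were at 430.5 CPM in wild type replicate 3 (others 5.689 to 6.484). Liver markers were at 131.9 CPM in wild type replicate 1 (others 3.85 to 9.592) and at 3.533 CPM in EoE33 replicate 3 (others 0.7014 to 0.9973).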

How the results depend on the processing

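Over 19 alternative settings, 4332 to 5458 genes passed as higher and 4495 to 5444 as lower, the lowest counts without both wild type replicates 1 and 3. No member reversed its direction in them: the log2 fold change ranged from 8.15 to 8.72 for Il19, 7.51 to 9.25 for Il24, 4.55 to 5.09 for Il20ra, -2.18 to -1.89 for Il20rb, 0.15 to 0.50 for Il22ra1, 0.51 to 0.78 for Il10ra and -0.28 to -0.14 for Il10rb. For Il10, 13 settings gave log2 ratios of 2.26 to 3.26. Replicate numbers are shared by the groups, but same-numbered libraries did not deviate together (correlations of -0.136 to 0.104), so the numbers were not taken as pairs. With a replicate block, 4936 genes passed as higher and 5120 as lower, and Il24 was at 8.14. Of the IL-10-induced genes, 1 in place of 2 passed as lower with the replicate block, DESeq2 size factors, library size only, library sizes without Chil4, no filter, DESeq2, or without both wild type replicates 1 and 3, and 1 to 2 when single libraries were left out. Of the class II relatives, 2 passed as higher without both wild type replicates 1 and 3, 1 as lower with no filter, and 0 to 1 as lower when single libraries were left out. With the longest transcript as the length, the log2 ratio in wild type and EoE33 was -1.90 and 0.45 for Il22ra1 to Il20rb, -1.45 and -0.92 for Il22ra1 to Il10rb, and -2.28 and -1.40 for Il10ra to Il10rb. With either STAT gap counted, 3 of 5 promoters held a match, against 12.4% of all 32851 promoters. Among these, the Il20 match lies inside the gene body annotated by GENCODE M21. The causes were not tested, other than that fewer libraries or another length enter. Depth limits Il20 (0 counts in wild type and 5 in EoE33), Il10 (8 and 45 counts) and the wild type level of Il24 (6 counts).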
